A study of Mus musculus with 12 samples.

Results

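The activin, inhibin and follistatin system was followed in mouse pituitary glands through 10 genes, taken by symbol from a table of 18497 named genes. They were the subunit genes Inhba, Inhbb and Inha, the binding protein gene Fst, the type I receptor genes Acvr1b, Acvr1c and Tgfbr1, the type II receptor genes Acvr2a and Acvr2b, and the co-receptor gene Tgfbr3. All 10 were listed, each once, and all 10 passed the filter on low values together with 18390 genes in all. The let-7f mimic group held 6 adult male glands and the vehicle group 6, with 1 library of rRNA-depleted total RNA per gland. All animals were wild type (WT) and labelled F1 C57BL/6Jx129S1/SvlmJ. As zygotes they had been injected either with a locked nucleic acid mimic of the microRNA let-7f-5p, labelled "Str - let7f" for its stress-relevant concentration, or with the nuclease-free water that served as vehicle. Embryos of both groups were cultured and then carried by CD1 recipient dams. The labels give neither the age in weeks nor the litter of a gland, so p-values measure the spread between glands taken as independent.

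Activins are dimers of beta subunits, activin A being made from Inhba and activin B from Inhbb, whereas an inhibin joins a beta subunit to the alpha subunit made from Inha. An activin binds a type II receptor, which then activates a type I receptor that phosphorylates SMAD proteins. In the gonadotroph cells of the pituitary this signal raises the transcription of Fshb, the gene of the follicle-stimulating hormone beta subunit. Follistatin binds activin and keeps it from its receptors, and inhibin blocks the type II receptors with the help of betaglycan, the product of Tgfbr3.

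The injected microRNA pairs with its targets mainly through its seed, bases 2 to 8. The mature let-7f-5p sequence of RefSeq (build GRCm38.p6), which is also the mimic sequence given in the labels, is shown with the seed in capitals. It is encoded by Mirlet7f-1 at chr13:48537889-48537910 (minus strand) and by Mirlet7f-2 at chrX:151912353-151912374 (plus strand).
let-7f-5p: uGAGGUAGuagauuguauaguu
A match to this seed, CTACCTC on the strand of the transcript, was searched in the 3' UTR of the longest protein-coding transcript of each gene in GENCODE M21. Of the 10 genes, 4 held at least 1 match, with 5 matches among them. All 3 type I receptor genes and the co-receptor gene held one, and none was found in the 3' UTRs of the 3 subunit genes, Fst or the 2 type II receptor genes. The 5 stretches are shown because they hold the letters a let-7 seed could pair with, which is a description and not a test of binding. The capitals mark the match, with the A opposite the first base of the microRNA where present.
Acvr1c, first match: tgttttattttagttCTACCTCA
Acvr1c, second match: aagggtttggaggatCTACCTCt
Acvr1b: aagcgtcgtggaggcCTACCTCt
Tgfbr1: aggaggctggttgttCTACCTCA
Tgfbr3: ctttttgtactgtaaCTACCTCA
All 5 stretches are exonic, and their coordinates are on GRCm38, the build of that annotation and not the build the authors name. The stretches of Acvr1c were at chr2:58274810-58274832 and chr2:58273735-58273757 (minus strand). Those of the other genes were at chr15:101210921-101210943 for Acvr1b and chr4:47410828-47410850 for Tgfbr1 (both plus strand), and at chr5:107106960-107106982 for Tgfbr3 (minus strand). Of all tested genes with a 3' UTR, 10.3% held the match. Long 3' UTRs hold it more often: among UTRs within 20% of the length of the Acvr1c UTR (7465 bases) the share was 39.4%. It was 23.4% for UTRs like that of Tgfbr1, 16.7% for Tgfbr3 and 14.98% for Acvr1b. For the members without a match it was 24.3% for Inhba, 19.25% for Acvr2a, 11.95% for Inhbb and 10.1% for each of Fst and Acvr2b. For Inha, with a UTR of 203 bases, it was 1.5%.

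Depth was similar in both groups. The reads recovered from the normalised counts came to between 26378308 and 37061136 in a library, named genes only, and the lowest member, Fst, had at least 50 reads in every library. Markers of all hormone cell types of the gland, with Lhb, Fshb and Gnrhr for gonadotrophs, were above 0 in all 12 libraries. The glands differed in the markers of the other lobes. The mean log2 level of 8 posterior lobe markers lay between 7.68 and 8.21 in the mimic libraries, and at 4.99, 7.61, 8.70, 6.49, 8.46 and 5.40 in vehicle libraries 1 to 6. The 4 melanotroph markers (Pax7, Pomc, Pcsk2 and Oacyl), which mark the intermediate lobe, were likewise lowest in vehicle 6, vehicle 1 and vehicle 4. Of the 8 posterior lobe markers, Lhx2 and Vax1 were at 0 in vehicle 1.

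Levels of different genes can be compared only per transcript length, so each normalised count was divided by the length of the transcript in kilobases. On this scale Tgfbr3 was the most abundant member, at 1068 ± 87.0 per kb in mimic and 1076 ± 92.5 per kb in vehicle glands (mean ± SD, n = 6 each). Tgfbr1 followed at 629 ± 52.9 in mimic and 608 ± 53.9 in vehicle glands, and Acvr2a at 390 ± 31.8 in mimic and 397 ± 20.4 in vehicle glands. The ranges of these 3 genes over the 12 libraries did not overlap with those of their neighbours in the order.

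Inha, Acvr1b, Acvr1c and Inhbb came next, and the ranges of neighbours overlapped. Their means per kb were 290.3, 245, 117 and 156 in mimic glands and 303, 247, 196 and 176 in vehicle glands. Inha lay above Acvr1b in 11 of 12 libraries and Acvr1b above Acvr1c in 10 of 12. Acvr1c lay above Inhbb in 1 of 6 mimic and 5 of 6 vehicle libraries. Inhbb lay above Acvr2b in all 12 libraries, although their ranges overlapped.

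Acvr2b, at 125 ± 23.4 per kb in mimic and 107 ± 15.1 in vehicle glands, lay above the lowest pair in every library. This pair was Inhba, at 44.2 ± 6.10 in mimic and 51.7 ± 12.5 in vehicle glands, and Fst, at 31.6 ± 4.57 in mimic and 28.3 ± 5.20 in vehicle glands. The transcript of the betaA subunit was therefore the least abundant of the 3 subunit transcripts per length, and that of the alpha subunit the most abundant, in both groups. The lengths are those of 1 annotated transcript per gene and not of the isoforms present in the gland, so the order is approximate.

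**Figure D1:**
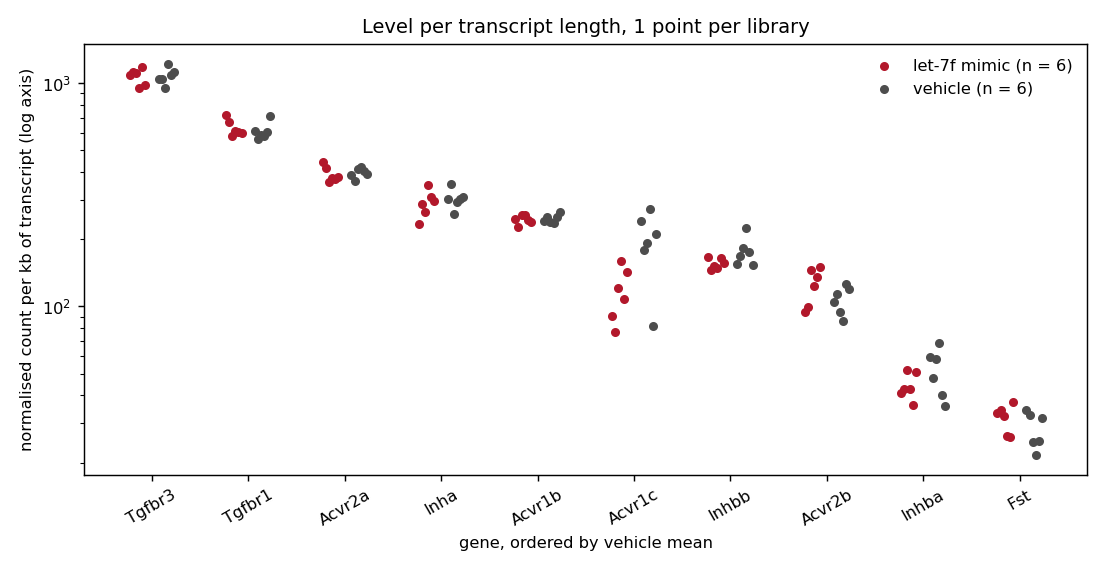
Normalised counts per kilobase of transcript (y axis, log scale) of the 10 genes (x axis, ordered by the vehicle mean), with 1 point per library, 6 mimic and 6 vehicle. Tgfbr3, Tgfbr1 and Acvr2a form separate steps at the top, Inhba and Fst lie lowest, and Acvr1c is the gene whose points spread most.

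None of the 10 genes passed the main test between the groups, and neither did any other gene. The test was limma-trend on log2 values (pseudocount 1), adjusted by Benjamini-Hochberg over all 18390 genes with a threshold of 0.05. It called 0 of the 10 members (n = 6 against 6), against 0% of all genes tested. At an unadjusted p under 0.05 there was 1 member, Acvr1c, against 4.78% of all genes. EdgeR's quasi-likelihood test on the recovered reads called 0 members (0% of all genes), with 1 at an unadjusted p under 0.05 (4.72% of all genes). DESeq2 also called 0 members (0.0675% of all genes with an adjusted p), with 1 at an unadjusted p under 0.05 (5.05% of all genes), and in both tools that member was Acvr1c. The groups overlapped for all 10 genes, and 0.12% of all genes had groups that did not overlap. The log2 fold change was positive for 3 members and negative for 7, with a median of -0.02, beside a median of -0.0005 over all genes tested. For 9 of the 10 members, and for 93.6% of all genes, the 95% interval excluded a change of 2-fold or more.

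The beta subunit genes had negative values that did not pass. Inhbb, the betaB subunit, was at 708, 619, 648, 630, 699 and 669 normalised counts in mimic libraries 1 to 6 and at 660, 717, 779, 950, 745 and 651 in vehicle libraries 1 to 6. Vehicle 4 stood above all other glands, and the mimic glands, all 6 below the vehicle mean, spread less, with a coefficient of variation of 5.47% in mimic and 14.6% in vehicle glands, a difference in spread that was not tested. Inhbb differed by -0.17 on the log2 scale (SE 0.09, 95% interval -0.36 to 0.02, adjusted limma p 0.976). Without vehicle 4 it was -0.10, without vehicle 6 -0.21, and with the level of Lhb, Fshb and Gnrhr as a covariate -0.08.

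Inhba, the betaA subunit, was at 261, 273, 332, 272, 231 and 325 normalised counts in mimic libraries 1 to 6 and at 379, 306, 371, 438, 257 and 230 in vehicle libraries 1 to 6. The vehicle glands spread over both sides of the mimic range. Inhba differed by -0.20 on the log2 scale (SE 0.15, adjusted limma p 0.976), by -0.11 without vehicle 4 and by -0.30 without vehicle 6. Inha, the alpha subunit that makes an inhibin of a beta subunit, averaged 428 ± 57.5 over the 6 mimic glands and 447 ± 43.7 over the 6 vehicle glands (SD). Inha differed by -0.07 on the log2 scale (SE 0.10, adjusted limma p 0.976), and the value was -0.01 without mimic 1 and -0.02 without vehicle 2, the lowest and the highest gland for Inha. It was -0.12 without mimic 4, -0.11 without vehicle 3 and -0.04 without mimic 3, and -0.11 and -0.12 with the gonadotroph genes and the melanotroph markers as covariates.

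Fst, the activin-binding protein gene and itself a target of activin in gonadotrophs, was the lowest member. It was at 94.1, 97.7, 92.0, 74.5, 73.7 and 105.9 normalised counts in mimic libraries 1 to 6 and at 97.1, 92.7, 69.8, 61.2, 71.0 and 89.6 in vehicle libraries 1 to 6. Both groups held glands near 70 and glands above 90. Fst differed by 0.17 on the log2 scale (SE 0.15, 95% interval -0.15 to 0.48, adjusted limma p 0.976), by 0.09 without vehicle 4 and by 0.22 without vehicle 1. With a marker level as a covariate the value was 0.25 for the posterior lobe, 0.28 for melanotrophs and 0.08 for the gonadotroph genes.

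Acvr1c encodes a type I receptor used by activin B and other ligands of the family. It was measured at 833, 707, 1110, 1470, 991 and 1313 normalised counts in mimic libraries 1 to 6. In vehicle libraries 1 to 6 it was at 2206, 1632, 1754, 2499, 749 and 1941. Vehicle 5 was thus as low as the lowest mimic glands, whereas each of the other 5 vehicle glands was above every mimic gland. Acvr1c averaged 1070 ± 288 over the 6 mimic glands and 1797 ± 601 over the 6 vehicle glands (SD).

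On the log2 scale the fold change of Acvr1c was -0.70 (SE 0.25, 95% interval -1.24 to -0.15), with an unadjusted limma p of 0.0156 and an adjusted p of 0.976. All 6 mimic glands lay below the vehicle mean. An absolute log2 fold change of this size or larger was found for 1.51% of all genes. Without vehicle 5 the value was -0.93 (limma adjusted p 0.404), and without vehicle 4 or without mimic 2 it was -0.59. Acvr1c was also the most variable member. Its SD within groups was 0.52 on the log2 scale, larger than that of 95.7% of 15276 tested genes with a mean of at least 50.

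Among the vehicle glands, high Acvr1c went with low markers of the other lobes. Acvr1c was highest in vehicle 4, vehicle 1 and vehicle 6, the 3 libraries lowest in posterior lobe and melanotroph markers, and lowest in vehicle 5, the vehicle gland highest in the melanotroph markers at 14.2. The order was not strict: vehicle 3, highest in the posterior lobe markers at 8.70, had 1754 counts, above vehicle 2 with 1632 counts at 7.61. Among the mimic glands the arrangement was another: mimic 4, highest of all 12 libraries in the melanotroph markers at 14.6, had the highest Acvr1c of its group, and mimic 1, lowest of its group at 12.7, had 833 counts. The melanotroph level was 13.7 ± 0.622 in mimic and 12.5 ± 1.39 in vehicle glands (mean log2 ± SD, n = 6 each). With the posterior lobe marker level as a covariate the log2 fold change was -0.49 (limma adjusted p 0.995). With the melanotroph level, a covariate chosen after seeing the data, it was -0.46 (limma adjusted p 0.9998). In whole glands, fewer cells of a type and less RNA per cell cannot be told apart. The part of the lobe content in the Acvr1c values was not tested beyond these fits and the relation to the posterior lobe markers. Over the 12 libraries, centred within groups, that relation had a Pearson's r of -0.50 (permutation p 0.105, adjusted p 0.615). Its Spearman's rho was -0.50 (permutation p 0.100, adjusted p 0.681), so it did not pass.

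**Figure D2:**
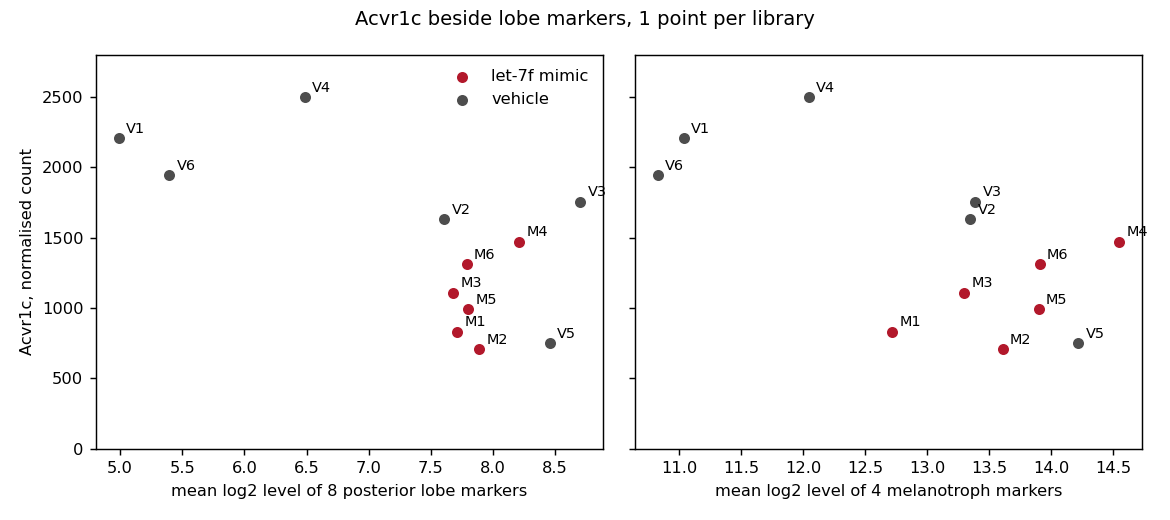
Acvr1c in normalised counts (y axis) against the mean log2 level of 8 posterior lobe markers (left) and of 4 melanotroph markers (right), with 1 point per library (M1 to M6 mimic, V1 to V6 vehicle). The vehicle glands V1, V4 and V6 combine low marker levels with 1941 to 2499 counts of Acvr1c, and V5 combines a high melanotroph level with 749 counts. The mimic glands do not follow that line, since M4 has the highest melanotroph level of all 12 and, at 1470 counts, the highest Acvr1c among them.

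The other type I receptor genes varied less than Acvr1c. Acvr1b, the main type I receptor of activin A, ranged from 1005 to 1138 normalised counts in mimic and from 1048 to 1167 in vehicle glands. Its coefficient of variation over the 12 libraries was 4.24%, and its SD within groups was larger than that of 1.98% of the 15276 genes. Acvr1b differed by -0.01 on the log2 scale (SE 0.05, adjusted limma p 0.992), and the 95% interval of -0.13 to 0.11 was the narrowest among the members.

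Tgfbr1, the type I receptor for TGF-beta, which also serves GDF11 and myostatin, was at 4120, 3864, 3325, 3514, 3484 and 3427 normalised counts in mimic libraries 1 to 6. It was at 3492, 3215, 3349, 3349, 3482 and 4094 in vehicle libraries 1 to 6. One gland stood high in the vehicle group, vehicle 6, and 2 in the mimic group, mimic 1 and mimic 2. Tgfbr1 differed by 0.05 on the log2 scale (SE 0.07, adjusted limma p 0.976). Without mimic 1, mimic 2 or vehicle 2 the value was 0.01, 0.03 and 0.03, and without vehicle 6 it was 0.10. It was 0.09 with the posterior lobe and 0.13 with the melanotroph markers as a covariate.

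Among the type II receptor genes, Acvr2a was at 2518, 2361, 2042, 2136, 2114 and 2149 normalised counts in mimic libraries 1 to 6 and at 2211, 2064, 2338, 2395, 2305 and 2235 in vehicle libraries 1 to 6. Acvr2b was at 300.2, 315, 462, 391, 428 and 476 in mimic libraries and at 333, 362, 300.5, 273, 398 and 380 in vehicle libraries. In the mimic group the 2 glands highest in Acvr2a, mimic 1 and mimic 2, were the 2 lowest in Acvr2b, and in the vehicle group vehicle 3 and vehicle 4 had the same arrangement. The log2 fold changes were -0.03 for Acvr2a (SE 0.06, limma adjusted p 0.980) and 0.20 for Acvr2b (SE 0.13, limma adjusted p 0.976). With single libraries left out, Acvr2a ranged from -0.06 (without mimic 1) to -0.0035 (without mimic 3). The co-receptor gene Tgfbr3 ranged from 5780 to 7145 normalised counts in mimic and from 5750 to 7432 in vehicle glands, and differed by -0.01 on the log2 scale (SE 0.07, adjusted limma p 0.994).

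Vehicle 4 was the gland at the extremes of the system. It had the highest level of 4 members (Inhba, Inhbb, Acvr1c and Tgfbr3) and the lowest of 2 (Fst and Acvr2b), whereas no other library was highest for more than 2 members or lowest for more than 3. Vehicle 4 also had the highest mean log2 level of Lhb, Fshb and Gnrhr, at 13.7, against 12.6 to 13.0 in mimic and 12.7 to 13.2 in the other vehicle glands, and the lowest depth. Of the other gonadotroph markers listed, Tgfbr3l was also highest in vehicle 4, at 1868 normalised counts. Nr5a1, at 1420 there, was highest in mimic 2 (1481), and Foxl2, at 71.0, in vehicle 6 (89.6). The high level was not particular to gonadotroph markers. Gh, Prl (640604), Tshb (12035) and Crhr1 (678), markers of other hormone cells, were also highest in vehicle 4, whereas Ghrhr, Tshr and Tbx19 were not. Vehicle 4 was also among the libraries low in posterior lobe and melanotroph markers. Fshb is itself raised by activin, so the level of Lhb, Fshb and Gnrhr is not a measure of cell content alone. With the gonadotroph level as a covariate, the log2 fold change was -0.14 for Inhba and -0.58 for Acvr1c, and the part of gonadotroph content was not tested beyond these fits and the relations that follow. Over all 12 libraries, centred within groups, 0 of 20 relations between a member and the level of gonadotroph or posterior lobe markers passed adjustment. By Pearson's r the strongest was that of Inhbb with the gonadotroph genes (r 0.73, permutation p 0.0129, adjusted p 0.257; Spearman's rho 0.50, permutation p 0.102, adjusted p 0.681, n = 12). Without vehicle 2 and vehicle 4 together, the 2 libraries farthest from the median of the marker level, r was 0.37, with the centring of all 12 libraries kept. By Spearman's rho the strongest was that of Tgfbr3 with the gonadotroph genes (rho 0.62, permutation p 0.0374, adjusted p 0.681; r 0.61, permutation p 0.0311, adjusted p 0.311, n = 12), with an r of 0.43 without the same 2 libraries.

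**Figure D3:**
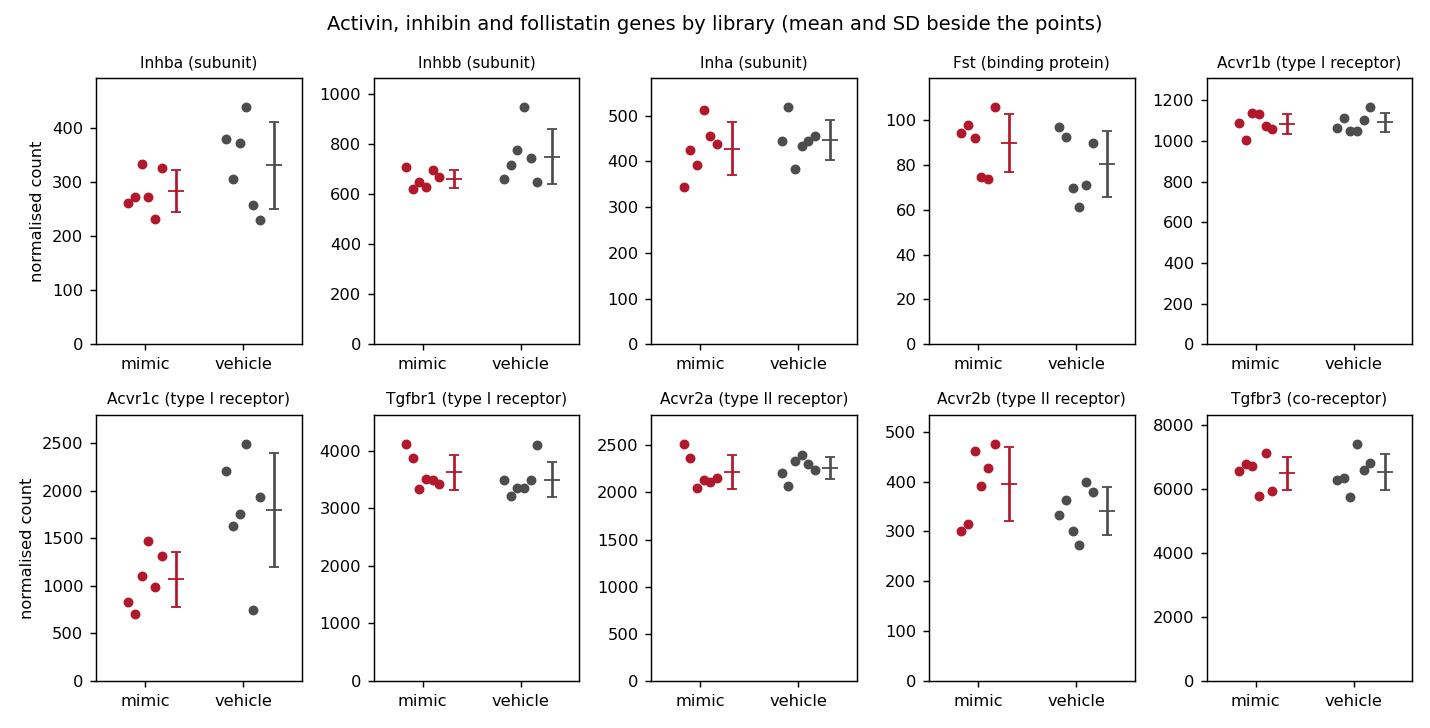
Normalised counts (y axis, from 0, a scale per panel) of the 10 genes in 6 mimic and 6 vehicle libraries, each in order of replicate number, with the mean and SD beside the points. The groups overlap in every panel, Acvr1b is nearly level, and the single high vehicle point of Inhbb (950) is vehicle 4.

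**Figure D4:**
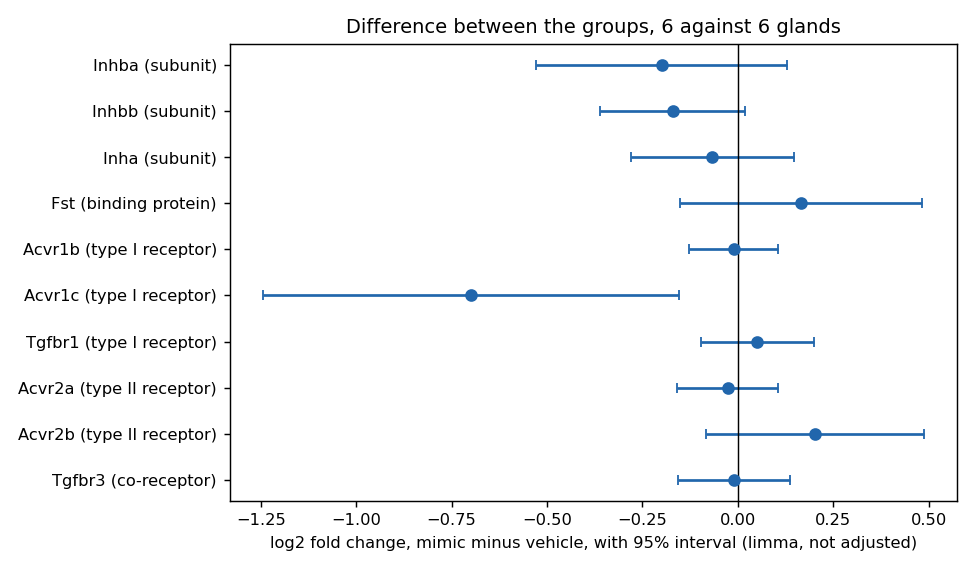
Log2 fold change of each gene (x axis, mimic minus vehicle) with its unadjusted 95% interval from limma, for 6 against 6 glands. The intervals of 9 genes include 0, and that of Acvr1c runs from -1.24 to -0.15, although its adjusted p was 0.976.

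Ratios of 2 members within a library do not depend on the scaling between libraries, and 5 were compared between the groups. They were taken from normalised counts not divided by transcript length. Only their differences between the groups can therefore be read, and not which gene is the more abundant. Each was tested two-sided with an exact permutation of the group labels (924 assignments), and none passed after adjustment over the 5. The ratio of Acvr1c to Acvr1b, the type I receptor genes of activin, was 0.76, 0.70, 0.97, 1.30, 0.92 and 1.24 in mimic libraries 1 to 6. It was 2.08, 1.47, 1.67, 2.38, 0.68 and 1.66 in vehicle libraries 1 to 6, so that vehicle 5 lay below all mimic glands and each of the other 5 vehicle glands above them. The log2 difference of this ratio was -0.69 (exact permutation p 0.0498, adjusted p 0.249), and all 6 mimic glands lay below the vehicle mean. Without vehicle 5, the vehicle gland of lowest Acvr1c, it was -0.93 with an adjusted p of 0.0216 by the exact permutation test, and over all single libraries left out the adjusted p ranged up to 0.498. Leaving out vehicle 5 removes the only overlap of the groups, so the test then gives the smallest p it can, and nothing is concluded from it.

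The ratio of Fst to Inhbb counts was 0.136 in mimic and 0.107 in vehicle glands (geometric means, n = 6 each, log2 difference 0.34, exact permutation p 0.132, adjusted p 0.330). Vehicle 4 had the lowest ratio, 0.0654. The log2 difference was 0.19 without vehicle 4 and 0.43 without vehicle 1. Per kb Inha lay above Inhbb, at 290 against 156 in mimic and 303 against 176 in vehicle glands. In counts not divided by length, the ratio of Inhbb to Inha was 1.56 in mimic and 1.67 in vehicle glands (log2 difference -0.10, exact permutation adjusted p 0.641, n = 6 each). Its log2 difference was nearer to 0 without mimic 4 (-0.04), vehicle 3 (-0.05) or vehicle 4 (-0.03), and farther from 0 without mimic 1 (-0.18) or vehicle 2 (-0.16). The ratio of Inhba to Inhbb was 0.424 in mimic and 0.433 in vehicle glands (log2 difference -0.03, exact permutation adjusted p 0.853, n = 6 each). Acvr2a to Acvr2b was 5.68 in mimic and 6.65 in vehicle glands (log2 difference -0.23, exact permutation adjusted p 0.419, n = 6 each), with 8.36 and 7.48 in mimic 1 and mimic 2 and 4.41 to 5.46 in the other 4 mimic glands. The log2 difference of Acvr2a to Acvr2b was -0.15 without vehicle 4 and -0.34 without mimic 1.

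**Figure D5:**
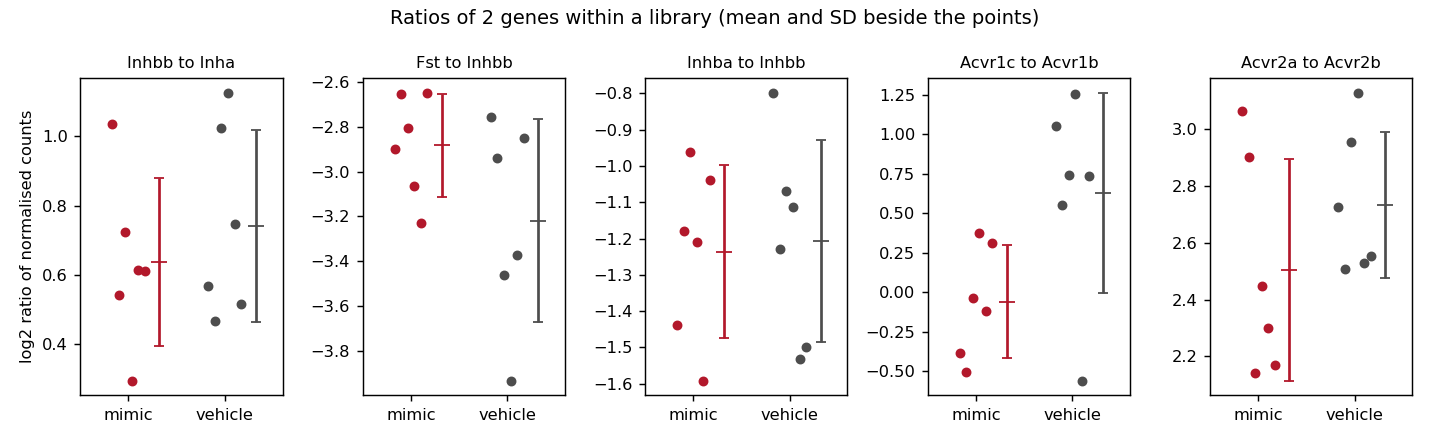
Log2 ratio of the normalised counts of 2 genes within a library (y axis, a scale per panel) in 6 mimic and 6 vehicle libraries, with the mean and SD beside the points. For Acvr1c to Acvr1b 5 vehicle points lie above all mimic points and 1, vehicle 5, lies below them.

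Of the 4 members that carry a let-7 seed match, 1 had a positive and 3 a negative log2 fold change, with a median of -0.01. The values were -0.70 for Acvr1c, 0.05 for Tgfbr1, -0.01 for Tgfbr3 and -0.01 for Acvr1b. The 6 members without a match had a median of -0.05, with 2 positive and 4 negative. Over all tested genes with a 3' UTR the median was 0.0001 for the 1587 genes with a match and -0.005 for the 13858 without. The mimic was given at the zygote stage and the glands are adult, and the level of let-7f in them was not analysed here.

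Other genes of the pathway were read from a list of 54, of which 50 were tested. None of the 50 passed, 19 had a positive and 31 a negative log2 fold change, and the median was -0.07, beside -0.0005 over all genes (9153 positive, 9237 negative). At an unadjusted p under 0.05 there were 6, all with negative values, and 2.49% of all genes met that description. The list was chosen with earlier results of these data known, so setting its share beside that of all genes is not a test. At an unadjusted p under 0.05, of either sign, edgeR had 7 of the 50 (4.72% of all genes) and DESeq2 8 (5.05% of all genes). Neither called any of the 50 after adjustment.

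In the 7 gonadotroph genes of the list (Fshb, Lhb, Cga, Gnrhr, Gata2, Nr5a1 and Foxl2) all 7 values were negative, with a median of -0.22. These are hormone, receptor and transcription factor genes, and whether activin acts on each was not tested. Lhb, Fshb and Gnrhr also make up the gonadotroph level used above. Gata2, a transcription factor of gonadotrophs and thyrotrophs, averaged 885 ± 129 normalised counts over the 6 mimic glands and 1121 ± 169 over the 6 vehicle glands (SD). The difference was -0.34 on the log2 scale (SE 0.12, adjusted limma p 0.976), and all 6 mimic glands lay below the vehicle mean. The gonadotropin subunit genes Lhb and Cga were at -0.34 and -0.29, and the gonadotropin-releasing hormone receptor gene Gnrhr at -0.15. Vehicle 4 was the highest library for all 3, and without it these values were -0.16, -0.15 and -0.07 (Gnrhr -0.05 without mimic 4). Leaving out other single libraries gave values as low as -0.43 for Lhb (without vehicle 5), -0.40 for Cga (without vehicle 2) and -0.20 for Gnrhr (without mimic 1). Fshb, the target by which activin is best known here, was at 21849, 13102, 18029, 14803, 21568 and 22326 normalised counts in mimic libraries 1 to 6. It was at 15222, 14359, 21843, 34036, 21656 and 25667 in vehicle libraries 1 to 6, highest again in vehicle 4. Fshb differed by -0.22 on the log2 scale (SE 0.20, adjusted limma p 0.976), by -0.08 without vehicle 4 and by -0.33 without vehicle 2.

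Among the 11 other receptors and co-receptors, 8 values were negative. Igsf1, a membrane glycoprotein gene of hormone cells, was at -0.22 (SE 0.10), and Tgfbr3l, which encodes a co-receptor for inhibin B in mouse gonadotrophs, was at -0.20 (SE 0.09), and for each gene all 6 mimic glands lay below the vehicle mean. Without vehicle 4, Tgfbr3l was at -0.13, and without vehicle 3 at -0.26. Bmpr1b, a type I receptor gene for bone morphogenetic proteins (BMPs), was at -0.28.

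Of 8 genes for binding proteins and processing enzymes, 5 were negative, led by Furin, a protease that cleaves the precursors of this family, at -0.35 (SE 0.12), and by the BMP antagonist genes Chrd at -0.22 and Nog at -0.38. Of 15 tested SMADs and intracellular regulators, 9 were negative. Smad1, a mediator of BMP signals, was at -0.24, Smad3, which carries the activin signal, at 0.17, and Ski, a repressor of SMAD activity, at -0.13. Of 9 tested other ligands, 7 were positive, among them Gdf11 at 0.24 and Tgfb3 at 0.08, and Bmp6 was at -0.15. Gdf11 was at 307, 324 and 298 normalised counts in vehicle 1, vehicle 4 and vehicle 6, the libraries lowest in posterior lobe and melanotroph markers. It was at 549, 739 and 691 in vehicle 2, vehicle 3 and vehicle 5, and at 489 to 699 in mimic glands. The part of lobe content in the Gdf11 value was not tested. With single libraries left out, Gdf11 ranged from 0.12 (without vehicle 6) to 0.39 (without vehicle 3). Tgfb3 ranged from 0.02 (without vehicle 1) to 0.13 (without vehicle 5), and Bmp6 from -0.22 (without mimic 4) to -0.10 (without vehicle 2). The limma adjusted p was 0.976 for each gene named in these lists.

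The genes whose profile over the 12 libraries was nearest to that of the most variable members were found by the root mean square difference of centred log2 values. The nearest genes lie below the median distance by the way they were chosen, so these distances do not test a likeness. Nearest to Acvr1c were Mfsd13b, Vwa2 and Lmntd1, at 0.34, 0.37 and 0.38, where the median over 15275 genes was 0.61. The SD of Acvr1c over the 12 libraries was also 0.61. Nearest to Inhba were Alx4, Stk17b and Afg2b, at 0.15, 0.15 and 0.16 (median 0.33). Nearest to Acvr2b were Zmat1, Snx32 and Gm18451, at 0.08, 0.10 and 0.10 (median 0.31). Zmat1, whose groups overlapped as those of Acvr2b did, ranged from 666 to 937 normalised counts in mimic and from 646 to 886 in vehicle glands.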

How the data were processed

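Per the submitters' processing notes, Trimmomatic 0.39, kallisto 0.50.1, DESeq2 1.48.2, FastQC 0.12.1, MultiQC 1.28 and GRCm39 were used. The authors deposited normalised read counts (a signal with 1 value per gene and library) in 1 table whose 12 columns the labels name (0 columns were unused). Within 0.001, 100% of the values in each column were whole multiples of the inverse of a size factor (0.817 to 1.17). The whole numbers are called recovered reads. A row without a gene name (0.0359% to 0.0567% of reads) was left out. The closest libraries differed 19.5 times more than counting error (chi-square per degree of freedom).

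Groups were compared with limma-trend (limma 3.58.1, R 4.3.3) on log2(value + 1), without covariates, for genes that reached 10 in 6 or more libraries. This scale understates changes of low genes. EdgeR 4.0.16 and DESeq2 1.42.0 were run on recovered reads as alternatives, and the tests were tested on simulated data. Ratios and relations used SciPy 1.17.1, the relations with 100000 resamples. Transcript lengths and 3' UTRs came from GENCODE M21, matched by symbol (15627 of 18497, 84.5%). For genes that share sequence, the values rest on kallisto's division of the reads.

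The members and lists were chosen with earlier results of these data known. Genes named were the members, the 3 pathway genes of smallest p in each group of the list, Lhb, Fshb and Gnrhr, and the 3 nearest profiles (mean of at least 50) to each of the 3 members of largest SD. Lhx2 and Vax1 were named after their values were seen, for their 0 in vehicle 1. Nr5a1 and Foxl2 were also named after their values were seen, as gonadotroph markers not highest in vehicle 4. So were Gh, Ghrhr, Prl, Tshb, Tshr, Tbx19 and Crhr1, as markers of other hormone cells compared in vehicle 4.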

Additional observations from a re-analysis of the deposited data

Results flagged for a closer look

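Of 82 sets of 6 glands tested (1 gene in 1 group each), 7 had a highest or lowest gland far from the other 5 by Dixon's test on log2 values, and chance gives about 4.1. Among the members, vehicle 5 was low for Acvr1c, at 748.9 normalised counts, with 1632 to 2499 in the remaining vehicle glands, and vehicle 6 was high for Tgfbr1, at 4094, with 3215 to 3492 in the remaining ones. Among the other named genes, Gdf11 was high in mimic 4 at 698.8 (488.7 to 534.2 in the other mimic glands), and Igsf1 was low in mimic 4 at 15881 (19280 to 20567). Lhb was low in mimic 1 at 8019 (9263 to 10043), and Vwa2 was low in mimic 2 at 35.2 (59.9 to 72.8). Gata2 was low in vehicle 3 at 794.9 (1091 to 1244 in the other vehicle glands).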

How the results depend on the processing

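Each fit was repeated with edgeR and DESeq2, TMM or quantile scaling, a pseudocount of 0.5 or 5, a minimum of 50 or none, the replicate number as a block, 3 marker levels as covariates, and each library left out. In none of these 24 repeats did a member or another gene of the pathway list pass. Over all genes the count was 0 in each, except DESeq2 with 10, none of them a member. The samples share only a replicate number: deviations of same-numbered libraries correlated at -0.09 to 0.08 over 1000 variable genes, and with the block Acvr1c was at -0.70 (limma adjusted p 0.993). The sign held in all repeats for Inhba, Inhbb, Inha, Fst, Acvr1c, Tgfbr1 and Acvr2b. Acvr1c ranged from -0.93 to -0.46, and its adjusted p from 0.404 to 0.9999. Values near 0 changed sign. As a covariate, posterior lobe markers gave 0.0243 for Tgfbr3, gonadotroph genes 0.0499 and melanotroph markers (added after seeing the data) 0.0381, Acvr2a was at 0.0017 with gonadotroph genes, and Acvr1b was at 0.0021 after quantile normalisation. With single libraries left out, Tgfbr3 ranged from -0.0469 to 0.0271, Acvr1b from -0.0247 to 0.0113 and the ratio of Inhba to Inhbb from -0.0943 to 0.0524. The ratio of Acvr1c to Acvr1b ranged from -0.927 to -0.5644, and only the first of these passed, without vehicle 5, the only gland by which the groups overlapped. Without the 2 libraries farthest from the median of the marker level, r changed sign to -0.34 for Inhba, 0.0284 for Fst, 0.27 for Acvr1b and 0.19 for Acvr2b against the gonadotroph genes, and to 0.23 for Inha and -0.10 for Acvr2a against the posterior lobe markers. None of these relations passed in any repeat. The cause of these changes was not tested. With 6 glands a group, the unadjusted 95% interval of the Acvr1c fold spanned 0.422 to 0.899. A different rescaling of the libraries leaves a ratio within a library as it is, so TMM was not run for ratios.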
